A study of Mus musculus with 4 samples.

Results

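Bone marrow-derived macrophages lacking Hes1 and Hey1 were compared with wild-type (WT) macrophages after both had received lipopolysaccharide (LPS). The comparison is 1 array of double knockout (DKO) cells with LPS against 1 array of WT cells with LPS, or 2 of the 4 arrays of the study, chosen by their sample titles. The other 2 arrays were of untreated cells of the same genotypes and are given beside the LPS values. All cells were primary macrophages of mice on the C57BL/6 background, grown from bone marrow for 5 days with 10% serum and 10% supernatant of L929 cells, which supplies macrophage colony-stimulating factor. The LPS was a preparation from Escherichia coli, given at 2 ng/ml for 3 h. The sources used here do not state how the genes were deleted, in which cells, or how many mice gave marrow. With 1 array per group there is no replicate check and no test: every difference is a description of 2 arrays, whose number limits the precision.

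Hes1 and Hey1 encode basic helix-loop-helix repressors that Notch signalling induces, and that bind short DNA motifs and recruit Groucho corepressors. LPS is recognised by the receptor TLR4 on macrophages and induces cytokines, chemokines and feedback regulators, in large part through NF-kB. The study asked which inflammatory genes these repressors regulate in macrophages, and the LPS pair bears on that question.

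The genes named at the outset for this pair were Il12b, which encodes the p40 subunit shared by interleukins 12 and 23, Cxcl1, a neutrophil attractant, and Klf4, a zinc-finger transcription factor. They were chosen with earlier results of these data known. Their promoter windows (250 bases before to 50 after the start site, RefSeq, GRCm38.p6) are shown because HES and HEY proteins are known to act at promoters. Capitals mark matches on either strand to the N-box CACNAG, the class C site CACGCG, the class B E-box CACGTG or the kappaB consensus.
Il12b, chr11:44399813-44400112, plus strand: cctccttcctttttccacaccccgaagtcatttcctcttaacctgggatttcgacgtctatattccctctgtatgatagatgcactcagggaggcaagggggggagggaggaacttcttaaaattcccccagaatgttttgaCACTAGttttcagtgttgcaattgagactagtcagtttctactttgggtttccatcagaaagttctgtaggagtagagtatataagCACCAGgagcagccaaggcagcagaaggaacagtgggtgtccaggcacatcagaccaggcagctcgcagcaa
Cxcl1, chr5:90890995-90891294, plus strand: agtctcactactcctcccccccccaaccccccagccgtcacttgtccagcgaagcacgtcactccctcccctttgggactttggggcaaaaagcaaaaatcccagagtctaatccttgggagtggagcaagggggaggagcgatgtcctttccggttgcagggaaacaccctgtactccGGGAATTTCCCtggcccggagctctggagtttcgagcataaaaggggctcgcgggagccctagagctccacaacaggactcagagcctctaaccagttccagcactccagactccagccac
Klf4, chr4:55532426-55532725, minus strand: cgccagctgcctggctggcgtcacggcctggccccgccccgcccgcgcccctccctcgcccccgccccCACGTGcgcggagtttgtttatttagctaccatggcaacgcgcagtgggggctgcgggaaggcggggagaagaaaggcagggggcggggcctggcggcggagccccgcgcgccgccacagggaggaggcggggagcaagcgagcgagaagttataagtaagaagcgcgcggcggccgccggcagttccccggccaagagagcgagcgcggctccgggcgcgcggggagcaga
The Il12b window held 2 N-boxes, starting 108 and 22 bases before the start site. In the Cxcl1 window 2 overlapping matches to kappaB, the motif of NF-kB, started 71 and 70 bases before it. That window held no N-box, class C site or E-box. In the Klf4 window an E-box started 182 bases before the start site. Such matches are common: of 32851 windows of this length, 42.5% held an N-box, 9.27% a class C site, 7.15% a class B E-box and 8.46% a kappaB match. Among genes at least 2-fold higher in DKO cells with LPS, 27 of 75 with a window held an N-box (36%), 6 a class C site (8.0%), 3 an E-box (4.0%) and 12 a kappaB match (16%). Of these 75, 21 were also at least 2-fold higher with LPS, averaged over both genotypes. Among those 21, 5 held an N-box (23.8%), 2 a class C site (9.52%), 0 an E-box and 3 a kappaB match (14.3%). The shares in the first window of each of 9184 genes above the floor were 40.4%, 17.8%, 10.3% and 9.89%. Among genes at least 2-fold lower, 31 of 87 held an N-box (35.6%), 16 a class C site (18.4%), 11 an E-box (12.6%) and 10 a kappaB match (11.5%). These matches are letters in a window and not measured binding.

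Each value is the intensity of a probe set, several short probes for the same transcript, on a linear scale. A floor of 52.9 units, the median over all probe sets and arrays, replaced lower values before ratios were taken, so a ratio with 1 array under the floor is a bound ("at least"). Calls of higher or lower refer to ratios that reached 2-fold, and a log2 difference is always DKO minus WT. Both targeted genes were under the floor with LPS. Hes1 read 45.4 and 2.14 units in untreated WT and DKO cells and 26.7 and 5.80 after LPS. Hey1 read 57.2 and 9.17 untreated, and 17.3 and 10.2 after LPS. The DKO values are the lower ones in each pair, but values this near or under the floor are a weak check of the genotype labels. The sources used here do not state whether these probe sets target deleted sequence.

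The labelled cell type was borne out by its defining markers on both LPS arrays. Csf1r, the receptor for macrophage colony-stimulating factor, read 23733 units in WT and 24370.0 in DKO cells, Adgre1 16225 and 19134, Cd68 23519.7 and 23159, and Lyz2 26173 and 25585. The Y-linked genes Eif2s3y (1368 and 2002 units in WT and DKO cells, 1.46-fold), Kdm5d (502 and 594) and Uty (528 and 587) were above the floor, and Xist was under the floor on both. Of the marker lists of other cells, those of T and NK cells, B cells, dendritic cells, mast cells and basophils, and stromal cells had 2 to 4 members each above the floor. Their summed intensities in the WT and DKO cells with LPS were 513 and 692, 6046 and 6689, 642 and 639, 327 and 283, and 433 and 461, the B cell sum being almost all Blnk, which macrophages also express. In these lists 3 members were called, all higher in DKO cells: the T cell kinase gene Zap70 (201 and 412 units with LPS, 1.04), the protease inhibitor gene Cst7 of the dendritic cell list (72.5 and 198, 1.45) and the stromal receptor gene Pdgfrb (62.1 and 144, 1.22). The neutrophil list had 4 of 14 and the erythroid list 6 of 10 members above the floor, with none called. The part of such cells in the differences below was not tested. The osteoclast and progenitor lists are given with their genes further on.

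Few genes were 2-fold apart. Of 11236 genes above the floor on at least 1 LPS array, 95 were higher in DKO cells (0.845%) and 105 lower (0.934%), 18 and 21 of them by a bound. The median difference over these genes was -0.040, and the central 95% lay between -0.73 and 0.71. Calls were commonest among dim genes: 6.07% of genes with a mean of 100 to 200 units were called, against 0.803% at 500 to 2000 units and 0.487% above that. From 500 units upward (6407 genes), the calls were 25 higher (0.39%) against 18 lower (0.281%). Member counts below are to be read against these shares.

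**Figure D1:**
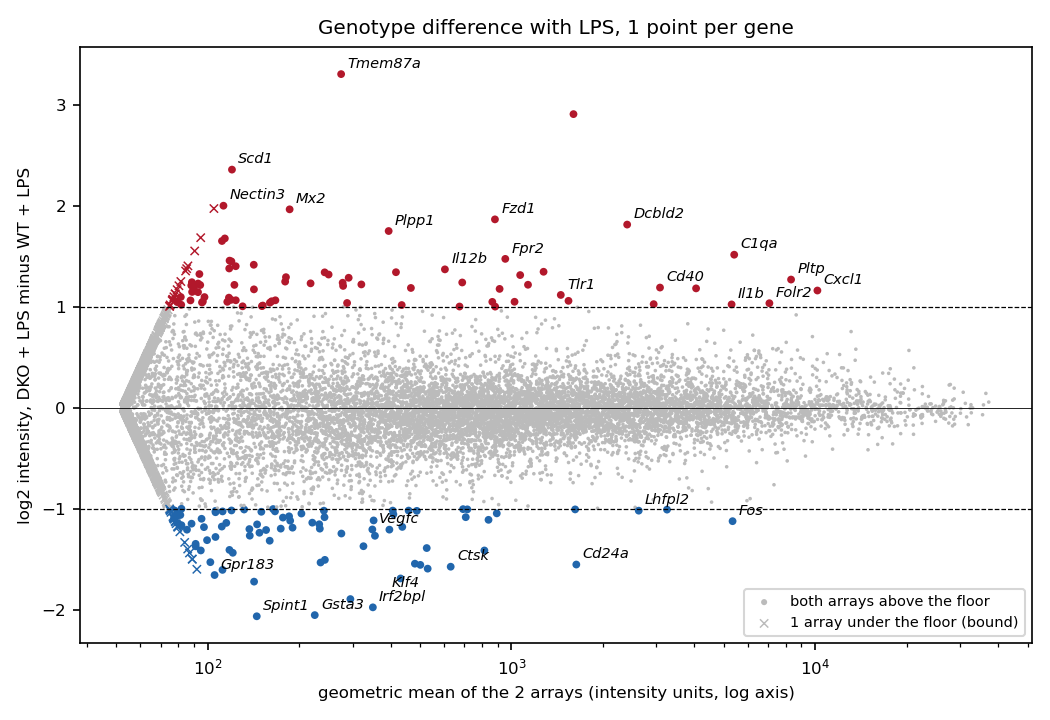
Log2 difference between the DKO and WT arrays with LPS (vertical axis) against the geometric mean intensity of the 2 arrays in units (log axis), 1 point per gene, with values under the floor of 52.9 units set to it. Red points are the 95 genes at least 2-fold higher in DKO cells, blue points the 105 at least 2-fold lower, crosses are bounds, dashed lines mark 2-fold; the wedge at the left comes from the floor, the spread narrows toward bright genes, and Dcbld2, C1qa, Cxcl1, Cd24a and Fos are called at high intensity.

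Il12b and Il1b, which LPS brings up, read at least 2-fold higher in DKO cells, and most other cytokine transcripts differed less. Il12b stood at 375 units in WT and 971 in DKO cells with LPS, and at 23.3 and 1.45, both under the floor, without it. That is 2.59-fold, and its other probe set gave 199 against 601, or 3.02-fold. Il1b, which encodes the pyrogenic cytokine interleukin 1 beta, read 3718 in WT and 7559 in DKO cells (2.03-fold), from 51.6 and 47.4 untreated. After quantile normalization its difference was 0.98, just short of 2-fold. Short of the mark were Il6 (1291 and 2501 units, 1.94-fold), Il1a (296 and 549, 1.85-fold) and the lymphocyte growth factor gene Il15 (1903 and 3096, 1.63-fold). Tnf differed little, at 14788 and 18766 units (1.27-fold). In the list of inflammatory cytokines 2 of 16 members above the floor were called higher and 0 lower, 13 had a positive difference, and the median was 0.41.

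Chemokine genes divided. Cxcl1 read 6791 units in WT and 15192 in DKO cells with LPS, against 25.4 and 34.1 untreated, a 2.24-fold difference that its other 2 probe sets gave as 2.25-fold and 2.35-fold. Its neighbours in function, which also attract neutrophils through CXCR2, were nearer to even: Cxcl3 at 9098 and 12419.9 (1.37-fold) and Cxcl2 at 25500.0 and 29803 (1.17-fold). The monocyte attractant gene Ccl12 was dimmer, at 86.8 and 232 units (2.67-fold, or 0.46 with the floor at the 65th percentile). Cxcl9, induced by interferon, was under the floor in WT cells at 44.5 and read 107 in DKO cells, at least 2.03-fold higher. On the other side, Ccl22, a ligand of CCR4, read 589 in WT and 283 in DKO cells (-1.06), and Cxcl11 376 and 227 (-0.73). The CXC list had 2 of 10 members higher, 0 lower and a median of 0.29, and the CC list 1 of 12 higher, 1 lower and a median of 0.27.

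Receptors and surface molecules were among the called genes that LPS induces. The costimulatory receptor gene Cd40 read 2039.6 units in WT and 4656 in DKO cells with LPS (2.28-fold), with 2.09-fold and 1.90-fold by its other probe sets. Tlr1, which pairs with TLR2 to sense lipopeptides, read 986 and 2140.4 (2.17-fold), and Fpr2, a formyl peptide receptor, 572 and 1591 (2.78-fold). Untreated levels of Tlr1 were 465 and 570.4, while Fpr2 was under the floor in both genotypes. The scavenger receptor gene Marco (158 and 395) and the integrin gene Itgb8 (262 and 664), whose product activates TGF-beta, were under the floor without LPS and differed by 1.32 and 1.34 on the log2 scale with it, higher in DKO cells. For Marco, a dimmer probe set was under the floor in WT cells and gave at least 1.09-fold.

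Differences past 2-fold, some of them larger, were also read in genes outside the classic mediators. Fzd1, a Wnt receptor gene, read 95.4 and 113 units in untreated WT and DKO cells, and 462 and 1685 with LPS. It was 3.65-fold higher in DKO cells, by its bright probe set alone, since the dim one gave at least 1.29-fold. Plpp1, a lipid phosphate phosphatase gene, read 215 units in WT and 723 in DKO cells with LPS (3.37-fold), although its untreated order was the reverse, 158 in WT and 78.8 in DKO cells. Dcbld2, a neuropilin-like membrane protein gene, went from 245 to 1281 units with LPS in WT and from 699 to 4507 in DKO cells, and its 3 probe sets gave 3.52-fold, 7.70-fold and 4.14-fold with LPS. The interferon-induced GTPase gene Mx2 read 94.2 and 368 (3.91-fold). Untreated, Mx2 was already at least 2.18-fold higher in DKO cells, at 116 units against 21.5, under the floor, in WT cells. Rgs16, a regulator of G protein signalling, read 153 and 386 (2.53-fold, but 1.46-fold by another probe set). The repressor gene Gfi1 was under the floor in WT cells at 49.1 and read 208 in DKO cells, at least 3.93-fold higher (0.31 with the floor at the 65th percentile), and Mir155hg, the host transcript of microRNA 155, was at least 2.25-fold higher at 50.9 and 119.

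Transcripts that LPS lowers were lower still in DKO cells in several cases. Klf4 read 3227 units in untreated WT and 2447 in untreated DKO cells, 921 in WT with LPS and 305 in DKO cells with LPS. The genotypes were 3.02-fold apart with LPS (-1.59), or -1.76 by the other probe set, against -0.40 untreated. Irf2bpl, which encodes an IRF2-binding protein, followed the same order, from 1761 and 1464 untreated to 694 and 176 with LPS (-1.98), with -0.96 by another probe set. Cpox, of haem synthesis, stood at 602 and 319 untreated and 258 and 78.3 with LPS (-1.72, and -0.79 by another). Gpr183, an oxysterol receptor gene, gave -1.66 by its bright probe set, with 187 and 59.4 units. Its second probe set read 61.6 and 61.7, no difference at all, so this gene's value rests on 1 probe set. With the floor at the 65th percentile Cpox (-0.62) and Gpr183 (-0.15) were short of 2-fold.

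To describe this over all genes, each gene was placed by its LPS effect averaged over both genotypes, which weights the 2 LPS arrays equally. Of 434 genes at least 2-fold higher with LPS, 25 were called higher in DKO cells (5.76%) and 4 lower (0.922%), with a median difference of 0.25. Of 384 genes at least 2-fold lower with LPS, 3 were called higher (0.781%) and 21 lower (5.47%), with a median of -0.27. The other 10418 genes had 0.643% higher, 0.768% lower and a median of -0.042. A positive difference was read in 78.6%, 24.2% and 42.6% of the genes of these classes, in that order. The same classes had medians of -0.10, 0.070 and -0.012 between the untreated arrays. The classes and the differences use the same LPS arrays, so this is a description only. In a comparison added after seeing the data, scaling moved the lowered class: after quantile normalization it held 273 genes, 11 of them called lower, and after cyclic loess 247 genes with 11 lower, although the medians stayed at -0.26 and -0.28. Of the 25 genes most induced by LPS, 25 read higher in DKO cells, by a median of 0.40, but 3 by 2-fold.

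**Figure D2:**
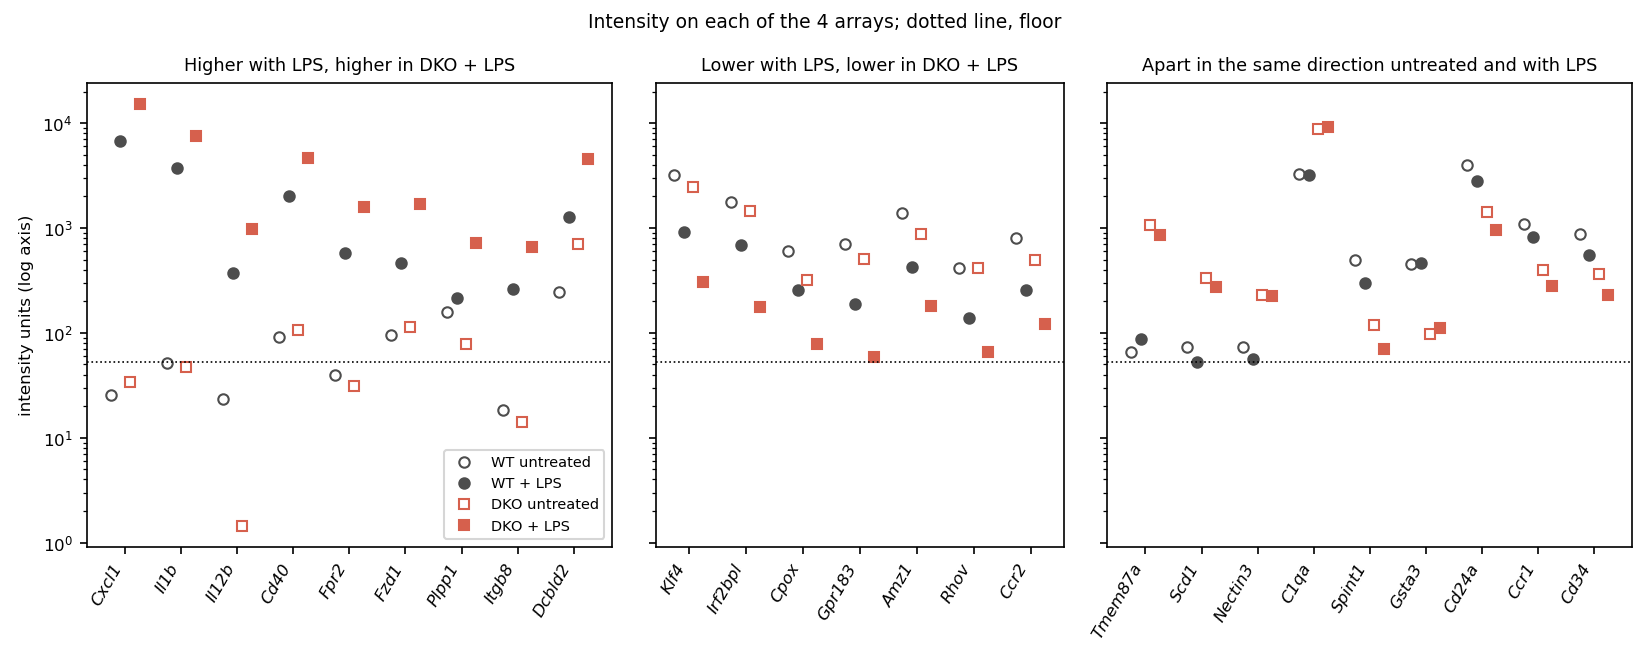
Intensity in units (log axis) on each of the 4 arrays for genes higher with LPS and higher in DKO cells (left), lower with LPS and lower in DKO cells (middle) and apart in the same direction untreated and with LPS (right). Circles are WT, squares DKO, open symbols untreated and filled symbols LPS; points under the dotted floor of 52.9 units have no reliable order, Dcbld2 on the left is also apart when untreated, and Plpp1 has the opposite order when untreated.

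Of the genes at least 2-fold higher with LPS, 4 read at least 2-fold lower in DKO cells, among them Ccl22 as given above. Vegfc, a lymphatic growth factor gene, read 75.8 units in untreated WT cells and 529 with LPS, and 36.9 and 229 in DKO cells. Its difference with LPS was -1.21, and its other probe sets gave -1.37 and -1.22. Met, the receptor for hepatocyte growth factor, read 353 and 167 (-1.08), and the transcription factor gene Zeb1 269 and 128 (-1.08). For Zeb1 another probe set ran the other way, at 73.2 and 88.1 units (0.27), and a further one gave -0.18. Serpinb9 and Sema4b had smaller LPS effects and were also lower in DKO cells with LPS. Serpinb9, an inhibitor of granzyme B, read 1235 and 572 (-1.11, and -1.13 by another probe set), and Sema4b, a semaphorin gene, 410.0 and 144 (-1.51). Among growth factors and their receptors 0 of 18 were higher and 2 lower, with a median near 0.

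Some transcription factor genes and 1 phosphatase gene of the early response read lower. Fos, an AP-1 subunit gene, read 7884 units in WT and 3617 in DKO cells with LPS (-1.12), from 4216 and 3374 untreated, and the circadian and immune repressor gene Bhlhe40 read 2297 and 1143 (-1.01). Jun gave 1553 and 991 (-0.65). Of 21 immediate early factors above the floor, 0 were higher and 2 lower, 13 had a positive difference, and the median was 0.044. Dusp5, a phosphatase of ERK kinases, read 174 and 60.1 (-1.53) and was the 1 member called among 16 SOCS and dual-specificity phosphatase genes. DKO cells lay just above the floor, and with the floor at the 65th percentile its difference was -0.045, which ends that call. Of those 16 genes, 10 had a positive difference, and the median was 0.084. Klf4 was the 1 member past 2-fold of 12 Kruppel-like factors above the floor, with Klf9 (981 and 617 units, -0.67), Klf10 (1128 and 729, -0.63) and Klf11 (295 and 192, -0.61) next. Over other processing settings Klf9 lay between -0.80 and -0.19. Of the 12, 6 had a positive difference, the highest at 0.43, and 6 a negative one, with a median of -0.046.

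Agreement between probe sets of the same gene limits how far a called gene can be relied on. Of the 200 called genes, 111 had no other probe set above the floor on both LPS arrays and 39 were bounds. The remaining 50 could be read again: 16 had every other such probe set past 2-fold the same way, 24 had another short of it, and 10 had another pointing the opposite way. The 8 higher genes in which every such probe set passed were Cxcl1, Dcbld2, Ifi213, Il12b, Nectin3, Plpp1, Pltp and Plxdc2. The 8 lower genes were Cd24a, Clec4n, Elovl7, Gsta3, Klf4, Serpinb9, Trib3 and Vegfc. Among the 21 higher genes the second brightest probe set had a median of 1.01 where the brightest had 1.24, and among the 29 lower genes -0.51 where the brightest had -1.20. Arhgap39 was a plain disagreement: its bright probe set read 569 and 153 units (-1.90) and the next 63.3 and 72.3 (0.19). Across the 4884 genes read by 2 or more probe sets on both arrays, the 2 brightest were a median of 0.19 apart, and 50 of them (1.02%) had the brightest past 2-fold. Probe sets of a gene share the RNA and the array, so agreement here is no replicate.

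**Figure D3:**
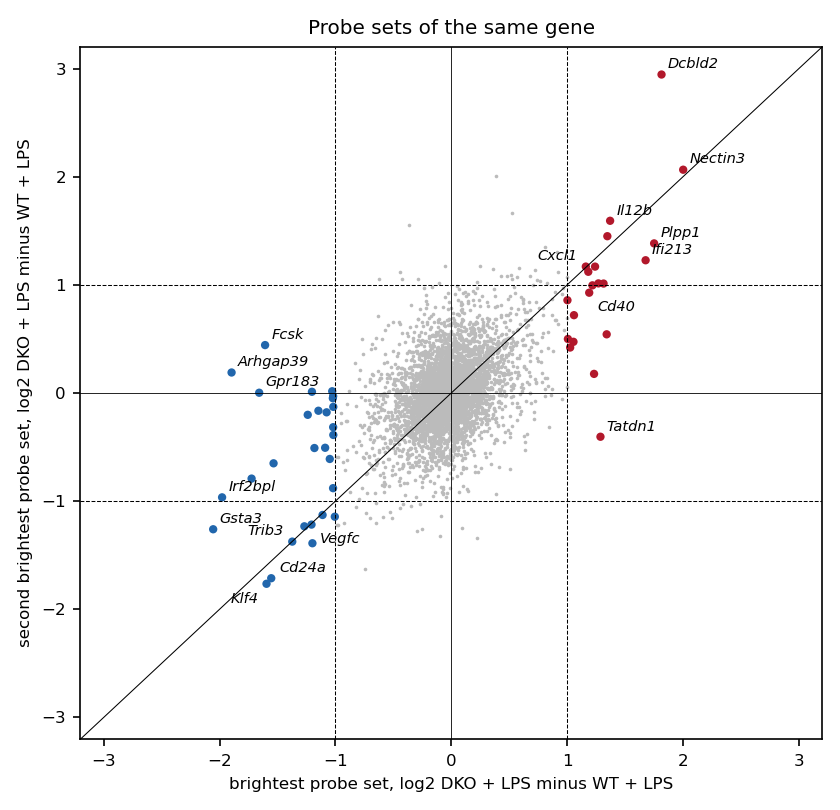
Log2 difference between the DKO and WT arrays with LPS by the second brightest probe set (vertical axis) against the brightest (horizontal axis), for the 4884 genes in which 2 or more could be read on both arrays; the diagonal marks equal values and dashed lines 2-fold. Red and blue points are the 21 genes higher and 29 lower by the brightest probe set: Il12b, Nectin3, Klf4 and Cd24a lie near the diagonal, while Arhgap39, Gpr183, Fcsk and Tatdn1 do not.

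Part of the genotype difference with LPS was already there without it. The untreated arrays are not part of the LPS pair. The sources used here do not state how many mice gave marrow, so whether the pairs share mice or cultures is not known. Calls shared by the pairs are therefore no replicate of the genotype difference. Among 10787 genes above the floor in both pairs, 75 were called higher in DKO cells with LPS and 53 untreated, and 26 were in both lists, which is 34.7% of the first and 49.1% of the second. Lower were 102 and 110, with 22 in both, or 21.6% and 20%. Over all 11379 genes above the floor on an untreated array, 53 were higher (0.466%) and 112 lower (0.984%). Genes called higher with LPS had a median untreated difference of 0.54, and those called lower -0.43. A further 20 genes called higher, Il12b, Il1b and Cxcl1 among them, were under the floor on both untreated arrays and have no untreated difference.

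Several genes stood apart in the same direction in both states. Tmem87a, a Golgi membrane protein gene, read 65.5 units in untreated WT and 87.5 in WT with LPS, against 1078 and 865 in DKO cells. Scd1, a fatty acid desaturase gene, read 73.5 and 53.1 in WT and 335 and 272 in DKO cells, a 5.13-fold difference with LPS that depends on the floor, since WT cells lay on it. With the floor at the 65th percentile it was 0.70, short of 2-fold. Nectin3, a cell adhesion gene, read 73.2 and 56.3 against 228 and 226, and was likewise short of 2-fold with that floor (0.42). These genes lay near the floor in WT cells and clearly above it in DKO cells, whatever the treatment.

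Lower in DKO cells in both states were genes of varied function. Spint1, a membrane protease inhibitor gene, read 494 and 297 units in untreated and LPS-treated WT cells and 118 and 70.9 in DKO cells (-2.07 in both states, but -0.82 with LPS at the higher floor). Gsta3, a glutathione transferase gene, read 454 and 459 against 96.7 and 111 (-2.05 with LPS, and -1.26 by another probe set). The transfer RNA modifying enzyme gene Cdk5rap1 (776 and 240.1 units with LPS, -1.69), the peptide-amidating enzyme gene Pam (859.9 and 292, -1.56) and the growth factor receptor gene Fgfr1 (400.5 and 138, -1.53) gave untreated differences of -1.61, -1.49 and -1.30. Fgfr1 had a second probe set at -0.65. Trib3, a stress-induced pseudokinase gene, read 524 and 202 with LPS (-1.37 by either probe set) and -1.90 untreated, Eef1a2 -1.21 and -1.40, and Serpinb9b -1.39 and -1.57.

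**Figure D4:**
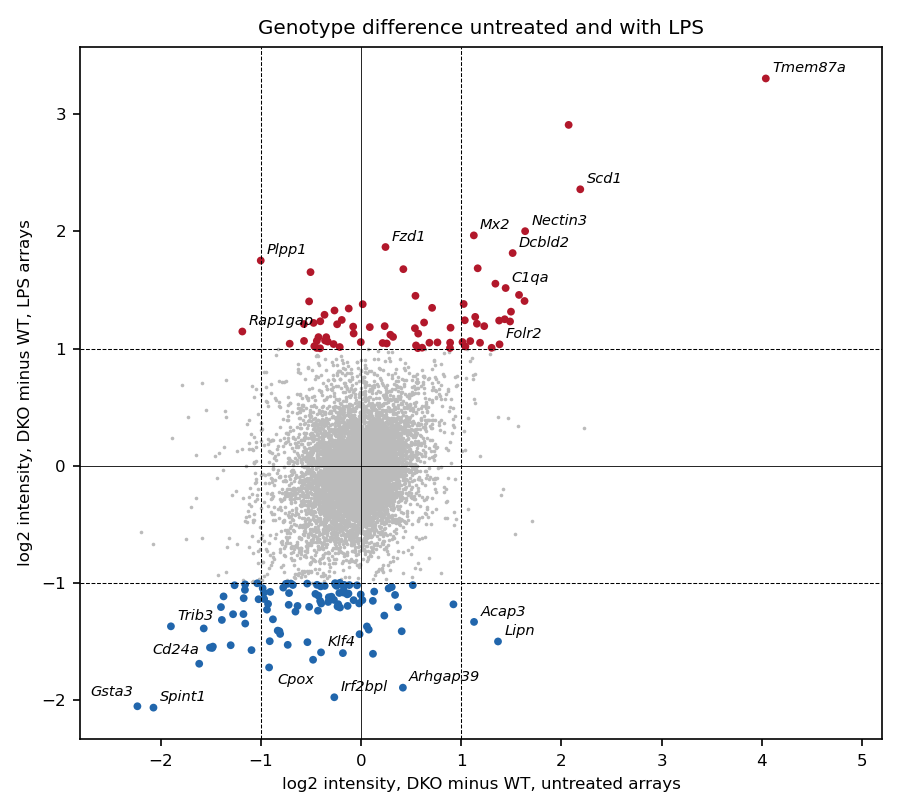
Log2 difference DKO minus WT with LPS (vertical axis) against the same without LPS (horizontal axis), for genes above the floor in both pairs of arrays; dashed lines mark 2-fold. Red and blue points are genes called higher and lower with LPS: Tmem87a, Scd1, Nectin3, Spint1 and Gsta3 are apart in both pairs, Fzd1, Klf4 and Irf2bpl mainly with LPS, and Plpp1, Rap1gap, Lipn and Acap3 have opposite signs.

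Some called genes were neighbours on a chromosome. In windows of 50 neighbouring genes above the floor, a median of 1 was called, and the highest count, 6, was reached on chromosome 2 with Rasgrp1 (1.22), Eif2ak4 (-1.16), Spint1 (-2.07), Rhov (-1.10), Mga (-1.02) and Tmem87a (3.31). The next highest was 5, on chromosome 16, with Nectin3 (2.00), Tbc1d23 (1.31), Dcbld2 (1.81), Cpox (-1.72) and the bound of Mir155hg (1.17). On these chromosomes 2.54% of 904 and 2.79% of 358 genes were called, against 1.78% of all genes, and chromosomes 12 (2.76%) and 13 (2.44%) had like shares. Tbc1d23 read 677 and 1685 units with LPS, with other probe sets at 1.01 and 0.12. Gene order was taken from RefSeq, and how often neighbours are called together by chance was not tested. Nor was any relation to the positions of the deleted genes tested.

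Several genes of resident-type macrophages read higher in DKO cells. C1qa, of complement C1q, read 3197 units in WT and 9145 in DKO cells with LPS (2.86-fold), and 3237 and 8804 untreated. Its partners were nearer to even with LPS, C1qb at 15431 and 20167 and C1qc at 11115 and 16614 (1.31-fold and 1.49-fold). The folate receptor gene Folr2 read 4930.2 and 10107 (2.05-fold) and the haemoglobin receptor gene Cd163 46.3 and 116, at least 2.18-fold higher. Mrc1 (1773 and 2791, 1.57-fold) and Maf (1727 and 2858, 1.66-fold) were short of the mark. In the list of macrophage identity genes 3 of 22 were higher, C1qa, Folr2 and Marco, 0 lower, and the median was 0.31 with LPS and 0.43 untreated. With LPS 17 of the 22 had a positive difference and 5 a negative one, the lowest at -0.65. The lipid efflux list, targets of the oxysterol receptor LXR, had a median of 0.25 with 1 of 12 higher, the phospholipid transfer gene Pltp, at 5357 and 12919.6 units (2.41-fold, and 2.02-fold by another probe set). Apoe (4516 and 7082, 1.57-fold), Mylip (1.51-fold) and Abca1 (5911 and 8868, a log2 difference of 0.59) came next among those higher. Of the 12, 8 had a positive difference and 4 a negative one, with Abcd2 lowest at -0.75.

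Some other receptors and some markers of immature or fused cells read lower. The chemokine receptor gene Ccr1 read 822 units in WT and 282 in DKO cells with LPS (-1.55), and its dimmer probe set gave at least 1.33-fold lower. Ccr2, the monocyte receptor for CCL2, read 258 and 121 (-1.09, and -0.51 by another probe set). A dimmer Ccr2 probe set ran the other way, with WT cells under the floor at 49.3 and DKO cells at 61.7, and the median over its probe sets was -0.19, short of 2-fold. Cxcr4 read 8336 and 4465 (-0.90) and Cxcr3 256 and 138 (-0.89). Of 7 chemokine receptors above the floor, 2 were lower and 0 higher, 6 had a negative difference, and the median was -0.89. This median depends on the processing: it was -0.17 with the floor at the 35th percentile and -0.19 with the median over each gene's probe sets. In osteoclast markers 2 of 8 were lower, the collagen-degrading protease gene Ctsk (1089 and 365 units, -1.58) and the cell fusion gene Dcstamp (199 and 73.5, -1.44), with a median of -0.48 and summed intensities of 4724 and 2955. Progenitor markers had 2 of 6 lower, the surface glycoprotein genes Cd24a (2800.2 and 954, -1.55) and Cd34 (552 and 229, -1.27), with summed intensities on the LPS arrays of 4986 and 2802 and on the untreated arrays of 7574 and 4211. Nearly all of the gap between the LPS sums, and most of that between the untreated sums, came from Cd24a and Cd34. The median of the progenitor list with LPS was -0.31, and between -0.11 and -0.058 under other scalings. The 10 progenitor members under the floor included Mpo, Elane, Prtn3, Ctsg and Myb. The part of these cells, too, was not tested, and fewer cells of a type and less RNA per cell cannot be told apart in such samples.

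Interferon and NF-kB genes differed by small amounts, most of them upward. Of 35 interferon-stimulated genes 33 had a positive difference and the median was 0.24, but 1 passed 2-fold, Mx2, with Iigp1 (1.88-fold), Mx1 (584 and 989 units, 1.69-fold) and Zbp1 (1.62-fold) next. Their untreated median was 0.27. Of 21 NF-kB family and feedback genes 18 had a positive difference with a median of 0.21, and none passed 2-fold: Nfkbiz, a nuclear cofactor for secondary response genes, read 6157 and 9241 (0.59), but its other probe sets gave -0.13 and 0.019, so its direction is not settled, and Nfkbid read 1652 and 1042 (-0.67). Untreated, this list had a median of -0.14. In Toll-like receptor signalling 1 of 26 was higher, Tlr1, and the median was 0.11. Among acute phase and antimicrobial genes 1 of 17 was higher, the copper transport gene Cp, at least 2.09-fold, with Serpinb2 and Lcn2 at 1.87-fold and Saa3 (7661 and 12486 units) at 1.63-fold, although untreated Saa3 had the reverse order, 805 in WT and 268 in DKO cells. Of the 17, 7 had a negative difference, with the coagulation factor gene F7 lowest at 299 and 155 units (-0.95). Prostaglandin, nitric oxide and itaconate enzymes had none of 15 past 2-fold, with the prostaglandin E synthase gene Ptges at 399 and 754 units (1.89-fold) and Ptgs2 at 6406 and 10038 (1.57-fold). Of the 15, 8 had a negative difference, with the leukotriene enzyme gene Alox5 lowest at 440.0 and 267 (-0.72). The median of that list, -0.0068, turned to 0.016 under another scaling.

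Among stress and metabolic genes, most list medians were below the median of all genes, -0.040. Of 20 stress response genes 16 had a negative difference, with a median of -0.16 and 1 called, Trib3; Ddit3, the CHOP transcription factor gene, read 2711 and 1359 units (1.99-fold lower). Of 22 Nrf2 targets and glutathione transferases 1 was higher, Gstt1 (80.7 and 167, 2.07-fold), and 2 lower, Gsta3 and Gstm2 (146 and 57.2, -1.35), with a median of -0.0023 that turned to 0.020 under another scaling. Iron and haem genes had Cpox lower and Cd163 higher of 17, and a median of -0.20. Of 30 cell cycle genes none passed 2-fold, 26 had a negative difference and the median was -0.19, with the cyclin gene Ccnd1 at -0.72 and the inhibitor gene Cdkn1b at 1.61-fold higher. Sterol and fatty acid synthesis had Scd1 alone called of 20, with a median of -0.12. Matrix proteases and cathepsins had Ctsk alone called of 21, and a median of -0.069.

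In the pathway upstream of the deleted genes none of 22 measured Notch pathway and HES/HEY members above the floor passed 2-fold with LPS, and the median was 0.041. The receptor gene Notch1 read 1599 and 977 units (-0.71), the ligand gene Jag1 4889.8 and 6245 (1.28-fold) and the DNA-binding partner gene Rbpj 6304 and 7702 (1.22-fold). Of 19 Groucho corepressor and elongation factor genes none passed 2-fold, with Tle2 farthest apart, at 101 and 179 units (1.77-fold). Over other processing settings the log2 difference of Tle2 lay between 0.088 and 0.85. Of the 19, 6 had a positive difference and 13 a negative one, with a median of -0.055. Reference genes gave none of 14 past 2-fold and a median of -0.020.

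**Figure D5:**
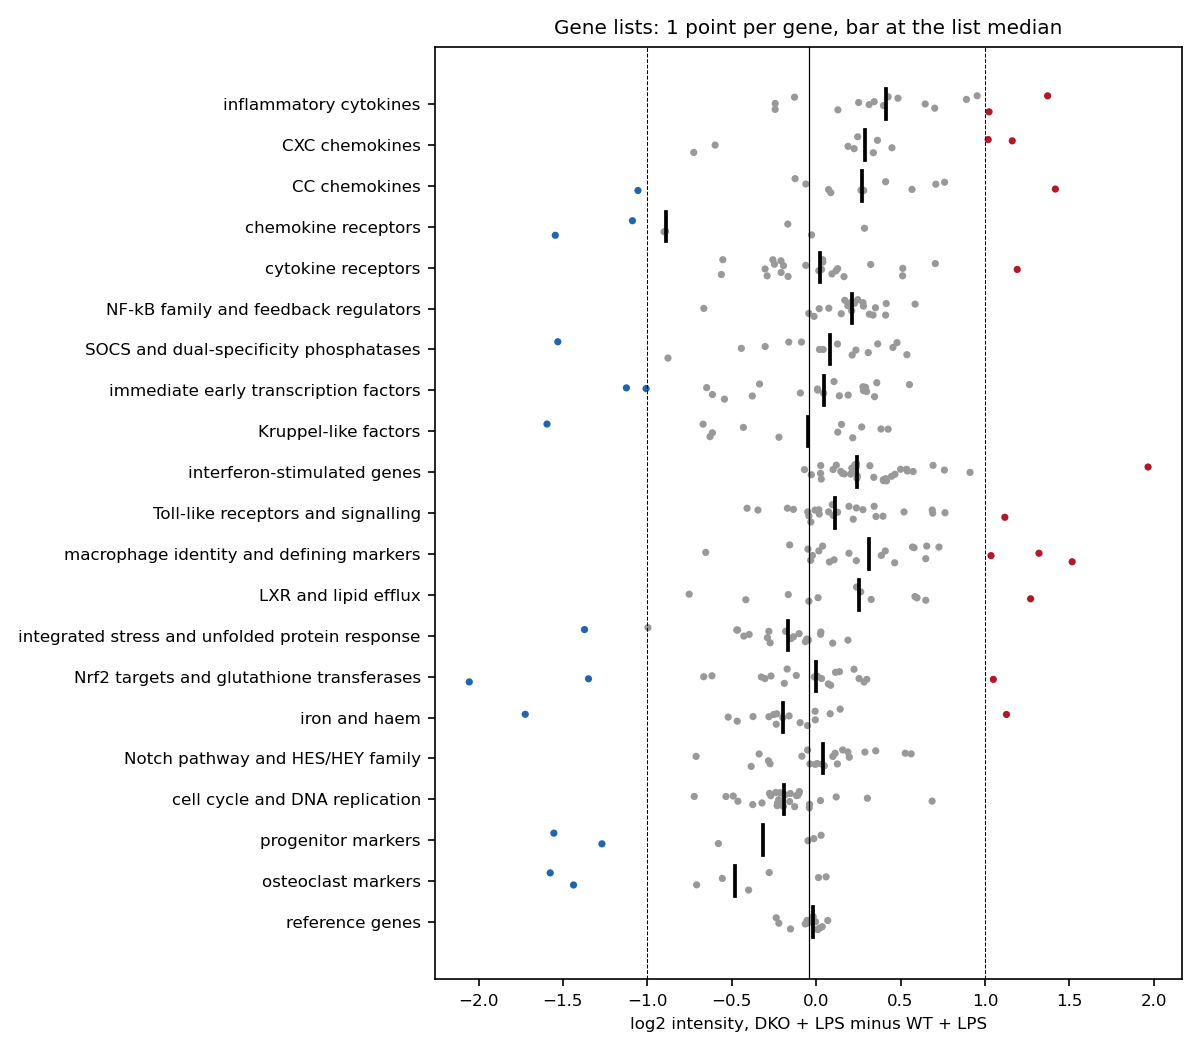
Log2 difference between the DKO and WT arrays with LPS (horizontal axis) for the members above the floor of 21 gene lists, 1 point per gene, with a bar at the list median; the thin line is the median of all genes, -0.040, and dashed lines mark 2-fold. Red and blue points are members called higher and lower: cytokines and macrophage identity genes have their medians to the right at 0.41 and 0.31, and chemokine receptors theirs to the left at -0.89, or at -0.17 with the floor at the 35th percentile.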

How the data were processed

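RNA of 4 macrophage samples was labelled with biotin and hybridised to Affymetrix mouse arrays. The authors deposited 1 linear intensity per probe set and array. From the values, each array's mean after trimming 2% at either end was 500.0 units, so the arrays share a common scale as deposited; the sources used here do not name the tool. Scaling by 1 factor leaves dim values free to shift, and the array medians were 59.1 and 50.9 units for WT cells without and with LPS and 51.0 and 50.8 for DKO cells.

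Of 45101 probe sets, 64 controls were left out, 34945 had 1 gene, 932 several and 9160 none listed. Symbols were updated through RefSeq (GRCm38.p6) for 34741. Each of 18193 genes was represented by its brightest probe set, judged by the 4-array mean. The floor was the pooled median, 52.9 units. No test was possible with 1 array per group. Gene lists (44 lists, 788 of 857 entries matched) and the genes named were chosen with earlier results of these data known. Named were Il12b, Cxcl1, Klf4, Hes1 and Hey1, the 15 largest differences each way with no probe set opposed, the 8 largest bounds each way, list members past 2-fold or among the 4 largest, and the 12 largest each way whose probe sets were all past 2-fold, or that were apart in both states, without unnamed transcripts. Genes outside this rule (Tnf, Cxcl2, C1qb, C1qc, Csf1r, Adgre1, Lyz2, Cd68, Amz1, the chromosome windows, Arhgap39 and others with disagreeing probe sets, Zeb1 and those of the closing section) were chosen after their values were seen, as were the LPS classes. Alternatives are listed in the closing section. The counting was tested on simulated data. Python 3.11.15, numpy 2.4.6, pandas 2.3.3 and limma 3.58.1 (cyclic loess, R 4.3.3) were used.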

Additional observations from a re-analysis of the deposited data

Results flagged for a closer look

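Genes called in opposite directions between the genotypes without and with LPS numbered 4, and the difference between the states was not tested. Plpp1 had a log2 difference of 1.75 with LPS and -1.001 without it (158 and 78.8 units). Rap1gap, a GTPase-activating protein gene, had 1.15 with LPS (62.5 units in WT and 138 in DKO cells) and -1.18 without it (139 and 61.1). Lipn, a lipase gene, had a bound of -1.501 with LPS, with DKO cells under the floor at 48.7 units against 149.9 in WT, and 1.37 without it (72.9 and 188). Acap3 had a bound of -1.33 with LPS, with DKO cells at 49.4 units against 133, and 1.13 without it (122 and 266). Acap3, Lipn and Rap1gap read from 48.7 to 266 units on the 4 arrays, at the dim end where calls were commonest.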

How the results depend on the processing

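Scaling moved the counts of calls over all genes by less than 1.5 times: genes at least 2-fold higher and lower with LPS numbered 95 and 105 as deposited, 100 and 107 with equal array medians, 106 and 92 after quantile normalization and 111 and 93 after cyclic loess. Among genes at least 2-fold lower with LPS, an added comparison chosen after seeing the data, the 21 called lower became 15 with equal medians and 11 after quantile normalization or cyclic loess. The floor moved the counts over all genes further, to 327 and 318 with a floor at the 35th percentile, 37 and 37 at the 65th, and 190 and 172 with no floor and an offset of 16 units. At 1.5-fold they were 453 and 565, and at 3-fold 12 and 10. Genes with every probe set past 2-fold numbered 16, against 9 with the floor at the 65th percentile and 8 with shared probe sets left out. Genes apart both untreated and with LPS, 26 higher and 22 lower, became 40 and 61 with the floor at the 35th percentile and 10 and 13 at the 65th. Of 84 named genes with calls, 43 kept the call with the floor at the 65th percentile. A further 19 were short of 2-fold, among them Ccl12, Ccr2, Cpox, Cst7, Dcstamp, Dusp5, Gfi1, Gpr183, Ifi213, Nectin3, Scd1 and Spint1, and 22 lay under that floor and have no value. When the median over probe sets stood for the gene, 68 kept the call, 12 did not, among them Ccr2, Cd40, Cxcl9, Fgfr1, Irf2bpl, Rgs16 and Tbc1d23, and 4 had no value. With shared probe sets left out 71 kept it, Cp and Irf2bpl did not, and 11 had no value. Quantile normalization ended 4 calls (Bhlhe40, Clec4n, Folr2 and Il1b), cyclic loess 2 and the offset 5. Where a value could be had, no sign turned among these calls, which a higher floor cannot do in any case. No paired analysis was possible because each group has 1 array. Signal near the floor limits what can be read of dim genes.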

Other observations

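The genes that follow were chosen after their values were seen, and describe no group as a whole. Among C-type lectin receptor genes of the Dectin-2 cluster, Clec4n and Clec4b1 read lower in DKO cells with LPS and Clec4d (29752 and 28023 units) and Clec4e (29069 and 32329) were near even: Clec4n, a receptor for fungal mannans, at 982 and 489 units (2.01-fold lower, and -1.14 by another probe set) and Clec4b1 at 253 and 101 (-1.32), with -1.04 and -1.39 untreated. Langerin, Cd207, read 1329.7 and 499 (-1.41). The granzyme inhibitor relatives Serpinb9 and Serpinb9b both read lower, as given above. Higher in DKO cells with and without LPS were the sialic acid receptor gene Siglec1 (113 and 234 units with LPS, 2.08-fold, but 0.47 and -0.16 by other probe sets), the Fc receptor-like gene Fcrls (601 and 1244, 2.07-fold), the carbonyl reductase gene Cbr2 (181 and 427, 2.36-fold) and Ndrg2 (117 and 278, 2.38-fold).

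The cell cycle inhibitor gene Cdkn2b read higher in DKO cells with LPS, at 209.9 and 489.7 units (2.33-fold), as did Btg2 at 477 and 955 (2.00-fold, and 0.86 by another probe set). The cell cycle list, which holds the related inhibitor genes Cdkn1a and Cdkn1b, had none of 30 called. Tsc22d1, a transcriptional regulator gene with 7 probe sets, read 2688 and 6103 (2.27-fold) by the brightest. Of its other probe sets above the floor on both arrays, those with log2 differences of 1.12, 1.54 and 1.39 ran the same way and 1, at -0.39, did not, and dimmer probe sets gave bounds of -0.86 and -0.36, also the other way. The unnamed transcript 2500002B13Rik had the second largest difference of all, 584 and 4385 units with LPS (7.51-fold) and 222 and 935 untreated.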
